A study of Homo sapiens with 15 samples.

Results

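The 6 loci described here are the genes of the platelet-derived growth factor (PDGF) system: the receptors PDGFRA and PDGFRB and the ligands PDGFA, PDGFB, PDGFC and PDGFD. They were chosen by name, and the set was selected on peak occupancy in the same libraries, because PDGFRA held more peak sequence in knockout than in wild-type cells and less in rescued than in knockout cells. The contrasts of knockout with wild type and of rescue with knockout are therefore given for these loci as a description, with no test. They are 6 of 20033 protein-coding genes, and all 6 were among the 18277 genes with a mean of at least 500 bases under peaks. Each locus was taken as the gene in GENCODE v44 plus 20 kb on each side, in hg38 coordinates.

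ATAC-seq, which marks accessible DNA by the insertion of sequencing adapters by the Tn5 transposase, was run on RPTEC, an hTERT-immortalised line of human renal proximal tubule epithelial cells. All 5 groups carry hTERT under G418 selection, and each group has 3 libraries. WT cells carry intact SETD2, the methyltransferase that places trimethylation on lysine 36 of histone H3. KO1 and KO2 are SETD2 knockout clones made by CRISPR in exon 3, each a single clone. Rescue1 and Rescue2 are single-colony clones of knockout cells transduced by lentivirus with full-length SETD2 carrying a FLAG tag and selected with blasticidin. The 3 libraries of a group are replicates of 1 line, and the labels do not say whether they came from separate cultures, so that p-values measure only the spread between these libraries. KO below means the 6 libraries of KO1 and KO2, and rescue the 6 libraries of Rescue1 and Rescue2.

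PDGF ligands are secreted dimers that bind and join receptor tyrosine kinases on the cell surface. PDGFRA binds the A, B and C chains, while PDGFRB binds mainly the B and D chains, and the C and D chains need proteolytic cleavage before they can bind. The receptors are typical of mesenchymal cells, such as fibroblasts and pericytes, and in the kidney PDGFRB marks the interstitial and mesangial cells, whereas epithelial cells are known mainly as a source of ligand.

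Each deposited list held 197527 to 266011 peaks, which covered 49.4 to 65.2 Mb on chromosomes 1 to 22, X and Y. Peak sequence was 51.7 ± 3.91 Mb in WT (SD, n = 3), 55.9 ± 3.13 Mb in KO (n = 6) and 58.3 ± 5.36 Mb in rescue (n = 6), so that the means rose from WT to rescue while the ranges overlapped, and the part of these totals in the results below was not tested. Read counts are not part of these lists, so sequencing depth is unknown, and a base outside peaks is a base below the calling threshold rather than closed chromatin. A peak within 1 kb of the gene start was present in all 15 libraries for 7 of 10 renal epithelial markers, among them PAX8, CDH16 and EPCAM. CDH1, encoding E-cadherin, had such a peak in 3 WT, 1 KO and no rescue library, and CUBN in none. Of 6 fibroblast and pericyte markers 3 had a peak in all 15 libraries, DCN had one in no WT, 6 KO and 1 rescue library, LUM in all but the 3 Rescue1 libraries, and MCAM in 2 WT libraries and no other. None of 4 blood markers, among them PTPRC, CD3E and HBB, had such a peak in any library, and of 4 endothelial markers PECAM1 and TEK had none, CDH5 had one in all 15 libraries and CLDN5 in 1 WT, 6 KO and 6 rescue libraries. The part of these marker differences in the PDGF results was not tested. SETD2 itself had 4145 to 4807 bases under peaks in WT, 4546 to 5668 in KO and 4929 to 6602 in rescue. Peaks at a gene do not show whether an exon was edited, so this does not check the labels.

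The peaks of all 15 libraries were merged wherever they shared 1 bp or more, which gave 367949 regions genome-wide and 183 at the 6 loci. Stretches of 200 bp from the middle of such regions at PDGFRA, PDGFD, PDGFRB and PDGFA are shown here, read from the plus strand of hg38. Each region had a peak in some groups and in no WT library, and carries only part of the differences at its locus. At PDGFRA the printed intron 7 and intron 1 regions gave 199 and 118 bases of KO minus WT. The intron 16 region, with a peak in all 15 libraries, gave 202.5. Capitals mark matches on either strand to 9 short motifs, which were picked with earlier results of these data known. No capitals in these stretches overlap one another.
PDGFRA intron 1, chr4:54254126-54254325, with a peak in KO libraries only: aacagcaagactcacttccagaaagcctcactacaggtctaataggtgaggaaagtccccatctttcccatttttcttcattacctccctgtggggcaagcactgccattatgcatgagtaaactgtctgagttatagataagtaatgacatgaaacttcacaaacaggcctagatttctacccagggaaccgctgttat
PDGFRA intron 7, chr4:54268295-54268494, with a peak in every KO library: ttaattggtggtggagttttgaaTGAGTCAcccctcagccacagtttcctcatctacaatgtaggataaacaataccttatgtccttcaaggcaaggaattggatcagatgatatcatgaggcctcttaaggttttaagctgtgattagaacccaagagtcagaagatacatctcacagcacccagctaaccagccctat
PDGFD intron 3, chr11:103959653-103959852, with a peak in every KO library and no other: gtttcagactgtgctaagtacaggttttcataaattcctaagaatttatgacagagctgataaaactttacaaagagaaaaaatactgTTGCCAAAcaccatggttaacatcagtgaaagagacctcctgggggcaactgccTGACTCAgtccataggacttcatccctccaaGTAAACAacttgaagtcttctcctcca
PDGFRB downstream flank, chr5:150110037-150110236, with a peak in every rescue library and no other: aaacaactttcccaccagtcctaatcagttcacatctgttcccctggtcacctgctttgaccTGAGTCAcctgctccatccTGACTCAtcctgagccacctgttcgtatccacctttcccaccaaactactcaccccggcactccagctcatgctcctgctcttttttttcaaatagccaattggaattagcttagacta
PDGFA upstream flank, chr7:525803-526002, with a peak in every KO and rescue library: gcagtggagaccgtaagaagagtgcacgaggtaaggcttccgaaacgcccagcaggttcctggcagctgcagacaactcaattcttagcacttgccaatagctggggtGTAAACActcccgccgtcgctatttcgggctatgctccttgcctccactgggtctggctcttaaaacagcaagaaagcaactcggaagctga

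The PDGFRA intron 7 stretch holds 1 match to the AP-1 motif (TGANTCA), the PDGFRB stretch holds 2, and the PDGFD stretch holds 1 beside a C/EBP (TTGCNNAA) and a FOX (TGTTTAC) match. The PDGFA stretch holds a FOX match, and the PDGFRA intron 1 stretch holds none of the 9. Across all 295008 regions with a peak in at least 2 libraries, a window of the same length held AP-1 in 27.5%, C/EBP in 10.4% and FOX in 3.52%. At the PDGFRA locus AP-1 was found in 5 of 17 such windows (29.4%), close to the genome-wide share, and at PDGFD in 10 of 22 (45.5%). The other motifs searched were homeobox (TAATTA, 3.8% of all windows), the POU octamer (ATGCAAAT, 1.39%), RUNX (TGTGGT, 20.7%), TEAD (GGAATG, 15.5%), a part of the HNF1 motif (GTTAAT, 7.49%) and the GC box (GGGCGG, 8.54%). Homeobox and octamer letters occurred in none of the 17 PDGFRA windows and in 1 each of the 22 PDGFD windows, and the homeobox and HNF1 letters can share bases. The first, middle and last 30 bases of each printed stretch occur once in hg38.

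PDGFRA (ENSG00000134853, chromosome 4, 54229280 to 54298245, plus strand), the receptor of broadest ligand binding, had more bases under peaks in knockout cells. The WT libraries had 3314, 3020 and 3027 bases. KO1 had 4260, 4284 and 4895, and KO2 had 4148, 4073 and 4325. All 6 KO libraries lay above all 3 WT libraries, in both clones. Rescue1 had 3722, 3350 and 3626 bases, and Rescue2 had 3850, 3769 and 3151. All 6 rescue libraries lay below every KO library, and 5 of 6 lay above every WT library.

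The means at PDGFRA were 3120.3 ± 168 bases in WT (SD, n = 3), 4331 ± 292 in KO (n = 6) and 3578 ± 271 in rescue (n = 6). KO exceeded WT by 1210.5 bases, or 38.8%, and rescue was 17.4% below KO, so that 62.2% of the knockout gain was absent in the rescued cells. The labels do not say from which knockout clone each rescue clone was made, so both knockout clones were pooled, and rescue differed from KO1 alone by -902 bases and from KO2 alone by -604. Of all genes measured, 12.8% had every KO library above every WT library, 11.9% had every KO library below, and 2.31% had every rescue library below every KO library. Since these contrasts chose the locus, nothing is read from its place among them. With each library scaled to its own peak total, the KO difference was 963 bases and the rescue difference -901 bases. The share of the gain absent in rescue was thus larger on that scale than the unscaled 62.2%. The library values and their order given above are of unscaled bases.

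**Figure D1:**
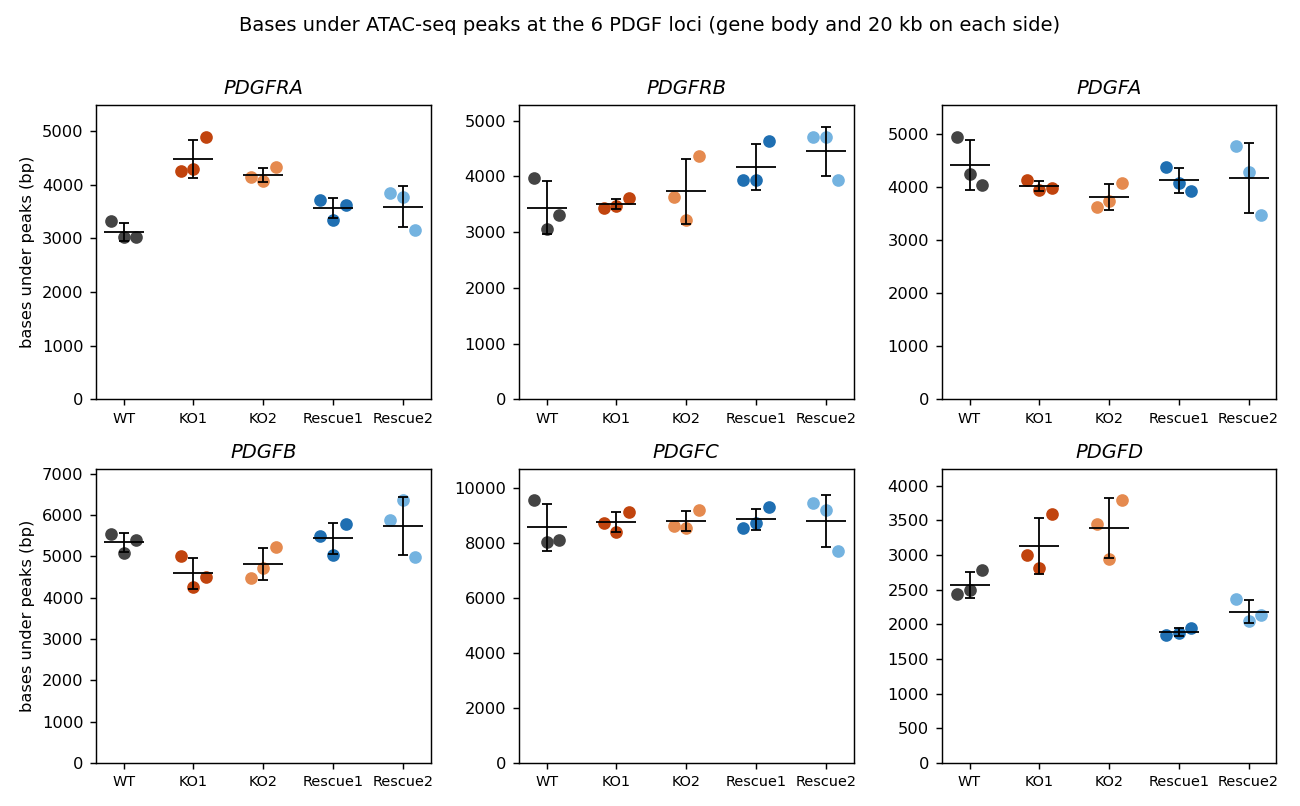
Bases under peaks (bp, y axis) in the gene body and 20 kb on each side of the 6 PDGF loci, by group (x axis). Points are libraries, and black lines give the mean and SD of 3 libraries. At PDGFRA the KO points (4073 to 4895) sit above the WT points (3020 to 3314), and at PDGFD the rescue points (1839 to 2366) sit below all others.

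The PDGFRA window held 17 merged regions. A peak was present in all 15 libraries at 7 of them (41.2%), against 28.5% of regions genome-wide. These were a region 11.4 kb upstream, the promoter region at 54227610 to 54228349, 2 regions in intron 1, a region each over exons 13 and 14, and one in intron 16. The middle of the promoter region lies -1.314 kb from the start, and no merged region covers the start itself. At the promoter the mean number of bases under peaks was 622 in WT, 611 in KO and 646 in rescue. In each library that peak ranked between percentile 74.8 and 91.9 of its own list by fold enrichment. All regions but the one over exon 23 also lie within a second annotated gene, ENSG00000282278, to which the same peaks could be assigned.

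Of the bases gained in KO at PDGFRA, 888 were in the 10 regions with a peak in 2 to 14 libraries and 322.5 in the 7 constant regions. A region without a peak in WT falls in the former class by definition, so the split is a description. Within the former 9 were higher in KO and 1 lower. One region, in intron 7 (54268246 to 54268545, 300 bp, 39.1 kb from the start), had a peak in every KO library and in no WT library, a pattern seen in 3.84% of regions genome-wide. No PDGFRA region had a peak in every WT library and in no KO library, a pattern of 1.99% of regions. The intron 7 region kept a peak in all 3 Rescue1 libraries and in 1 of 3 Rescue2 libraries. Its peaks covered 168 to 300 bases in KO libraries and 94 to 148 in the 4 rescue libraries that had one, so that in rescue they were narrower or absent.

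A pair of neighbouring regions in intron 1 and a second one in intron 7 followed, each missing from 1 or 2 KO libraries. The region at 54254141 to 54254312 had a peak in 3 KO1 and 2 KO2 libraries and was empty in WT and rescue, and the one beside it, at 54253812 to 54253999, in 4 KO libraries and 1 rescue library. The second intron 7 region, at 54269811 to 54270114, had a peak in 5 KO libraries and 1 rescue library. No WT library had a peak in any of the 3. Because of these near misses the count of regions with a peak in every KO and no WT library was 2 when KO1 replicate 1 or KO2 replicate 2 was left out. The count of PDGFRA regions in every KO and no rescue library was 0, against 0.993% of all regions, and became 1 without KO2 replicate 2.

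Other PDGFRA regions changed in width or stayed open in the rescue clones. The intron 16 region at 54281141 to 54281730 differed between the knockout clones. Its peaks covered 582, 563 and 577 bases in KO1, but 226, 192 and 241 in KO2, 202, 208 and 173 in WT, and 182 to 293 in rescue. The region over exon 23, the last exon (54297380 to 54297723), covered 77 and 95 bases in 2 WT libraries and none in the third, 161 to 310 in KO and 84 to 161 in rescue. A region just upstream of the promoter region (54227331 to 54227598) had no peak in WT, a peak in 4 of 6 KO libraries and one in all 6 rescue libraries. That region did not follow the return towards WT of the locus as a whole.

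**Figure D2:**
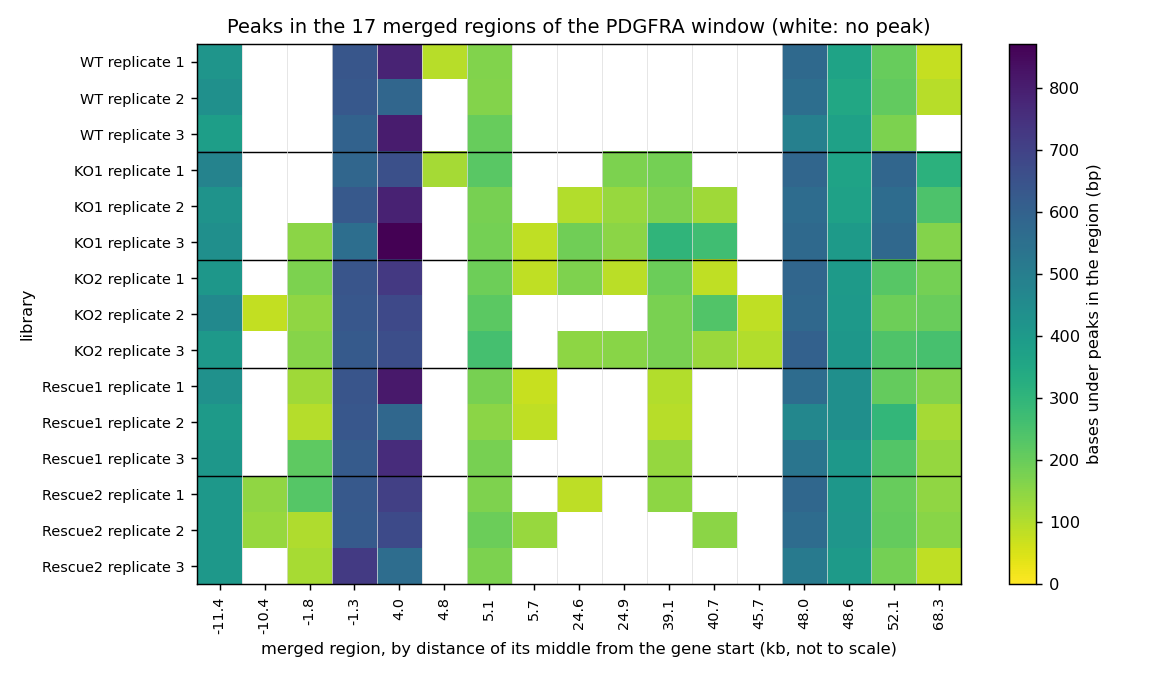
Peak occupancy of the 17 merged regions in the PDGFRA window. Columns are regions ordered by distance from the gene start (kb, not to scale), rows are libraries, colour gives the bases under peaks (bp) and white means no peak. The columns at 24.6 to 40.7 kb are white in all 3 WT libraries and filled in most KO libraries.

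PDGFRB (ENSG00000113721, chromosome 5, 150113839 to 150155872, minus strand), the receptor of pericytes and mesangial cells, did not share this pattern. WT libraries had 3970, 3047 and 3307 bases under peaks, KO1 3430, 3477 and 3604, and KO2 3629, 3214 and 4360. KO and WT libraries overlapped. Rescue1 had 3927, 3932 and 4640 bases, and Rescue2 had 4703, 4713 and 3941. The rescue libraries were at the upper end, and 3 of 6 lay above every WT library and 3 above every KO library.

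The rescue clones were tested against WT at the 5 loci other than PDGFRA, since that contrast did not choose them. limma was fitted to log2(bases + 500) across all genes, with Benjamini-Hochberg adjustment over them. PDGFRB was higher in rescue by 0.29 ± 0.084 (log2 difference ± SE, 95% interval 0.12 to 0.46, limma adjusted p = 0.00955). The exact permutation test on this locus alone (two-sided, 84 splits) gave p = 0.0952. In the fit 24.3% of all genes were higher and 3.78% lower in rescue than in WT, or 86.6% of the calls higher. With bases scaled to the library total the split turned to 33.2% higher and the median over all genes moved from 0.09 to -0.06, while PDGFRB remained higher at 0.14 (limma adjusted p = 0.0198). Without WT replicate 2 the PDGFRB difference was 0.22 (limma adjusted p = 0.119), and without WT replicate 3 it was 0.27 (limma adjusted p = 0.058), so the call rested on those libraries. The difference was 0.22 with peaks of −log10 q at or above 5 (limma adjusted p = 0.072) and 0.17 with the 150000 strongest peaks per library (limma adjusted p = 0.179).

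From KO to rescue the 13 PDGFRB regions with a peak in 2 to 14 libraries rose by 756 bases and the 8 constant ones differed by -66 bases, a split that occupancy itself partly sets. A region over exon 3 (150135332 to 150135761) had no peak in WT, 108 to 159 bases in 5 of 6 KO libraries and 225 to 424 in all 6 rescue libraries. A region over exon 20 had a peak in no WT, 1 KO and 6 rescue libraries. The PDGFRB window runs past the 3′ end of the gene into CSF1R, the colony-stimulating factor receptor gene, and 4 of its 21 regions lie there. From KO to rescue these 4 differed by 135.7, -117.8, 132 and 182.2 bases, so part of the rise in the window lies in CSF1R. One of these, at 150110040 to 150110234, had a peak in every rescue library and in no WT or KO library, as 0.278% of regions did genome-wide. Another, at 150113291 to 150113515 over the start of CSF1R, had a peak in 3 WT libraries, no KO library and 5 rescue libraries. The promoter region of PDGFRB was present in all 15 libraries, with 452 bases in WT, 579 in KO and 609 in rescue.

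Among the ligands PDGFD (ENSG00000170962, chromosome 11, 103907189 to 104164379, minus strand), a latent ligand of PDGFRB, showed the clearest separation of groups. WT libraries had 2436, 2492 and 2785 bases, KO1 3000, 2814 and 3590, and KO2 3444, 2940 and 3791. All 6 KO libraries lay above all 3 WT libraries. Rescue1 had 1839, 1875 and 1949 bases, and Rescue2 had 2366, 2051 and 2134. All 6 rescue libraries lay below every KO library and also below every WT library. Of all genes, 12.8% had every KO library above every WT library and 2.31% had every rescue library below every KO library. The share with every rescue library below every WT library was not counted, and limma called 3.78% of all genes lower in rescue than in WT. The means were 2571 ± 187 in WT (SD, n = 3), 3263 ± 398 in KO (n = 6) and 2036 ± 195 in rescue (n = 6), so rescue was 37.6% below KO and 20.8% below WT. The KO minus WT difference of 692 bases ranged from 257 to 863 under other settings. The rescue minus KO difference of -1227 bases ranged from -1356 to -640.

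The difference of rescue from WT at PDGFD was -0.28 ± 0.079 (log2 difference ± SE, 95% interval -0.44 to -0.12, limma adjusted p = 0.0082). The exact permutation test gave p = 0.0238, the smallest value 3 against 6 libraries allow, with lower values in 6 of 6 rescue libraries. Without WT replicate 3 the difference was -0.23 (limma adjusted p = 0.0838). It was -0.42 with bases scaled to the library total (limma adjusted p = 2.9e-06), -0.18 with peaks of −log10 q at or above 5 (limma adjusted p = 0.193) and -0.22 with the 150000 strongest peaks of each library (limma adjusted p = 0.0569). The direction was the same in each of these 4 settings, and the call was kept in the scaled one.

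The PDGFD window held 32 regions, of which 4 had a peak in all 15 libraries and 10 in a single library. The constant regions were the promoter, one in intron 1, one over exon 7 and one downstream. Of the 18 regions in 2 to 14 libraries, 12 were higher in KO than in WT and 16 lower in rescue than in KO, and their sum rose by 590.5 bases in KO and fell by 1195 in rescue. The region at 103959653 to 103959853 in intron 3 had a peak in every KO library, covering 89 to 201 bases, and in no WT or rescue library. It was the 1 region of the 183 with that pattern. A region in intron 1 at 104074036 to 104074285 also had a peak in every KO and no WT library but kept one in all 6 rescue libraries. In intron 1 the region at 104033243 to 104033445 had a peak in 6 KO libraries, 1 WT and 1 rescue library, and covered 175 to 200 bases in KO.

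Some PDGFD regions went the other way, with peaks in WT that were missing from most other libraries. In intron 6 the region at 103923410 to 103923860 covered 313, 373 and 325 bases in WT, had a peak of 76 bases in 1 KO library, and peaks of 76 and 137 bases in 2 Rescue2 libraries. Regions at 104120912 to 104121084 (intron 1) and 103979250 to 103979454 (intron 3) had a peak in 3 WT libraries, in 1 and 3 KO libraries respectively, and in no rescue library. A region in intron 1 at 104047288 to 104047496 had a peak in 5 KO libraries and no other. The 30-base stretches taken from it occur 33, 53 and 2087 times in hg38, so its peaks are uncertain.

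**Figure D3:**
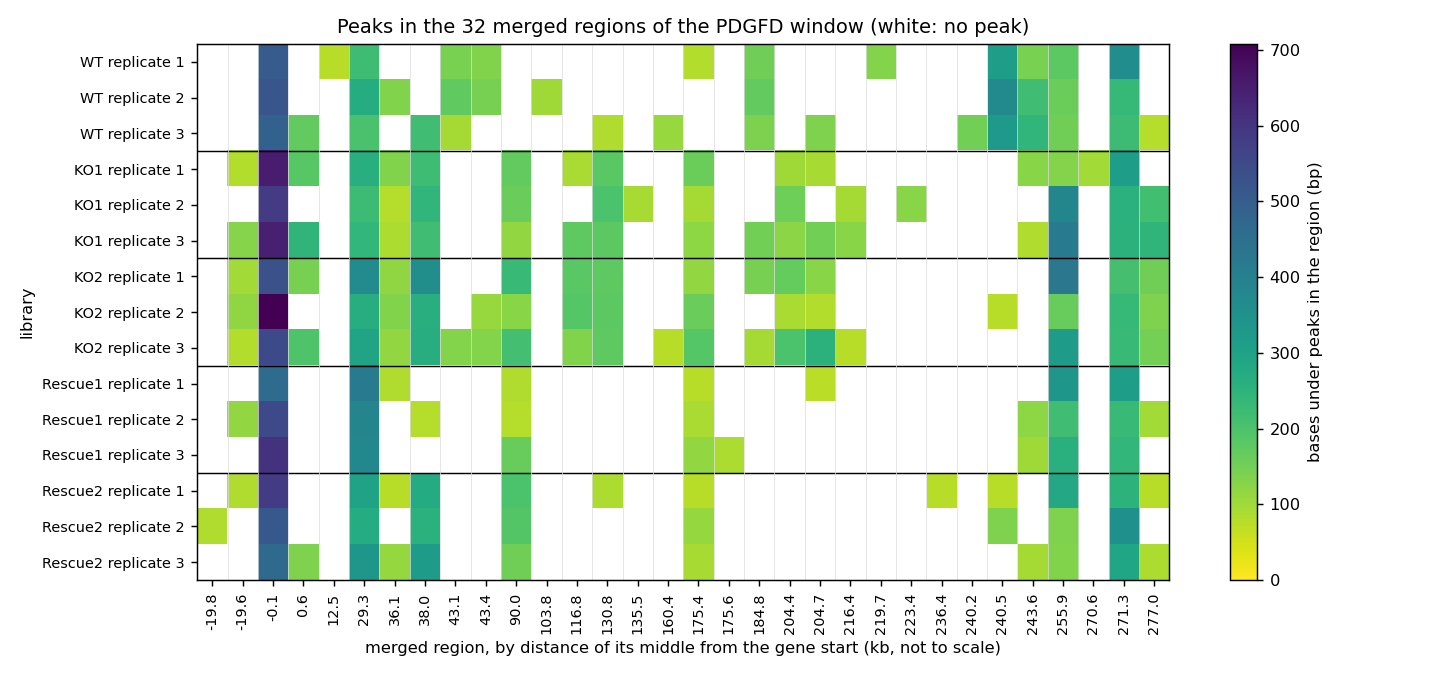
Peak occupancy of the 32 merged regions in the PDGFD window, drawn as for PDGFRA (rows are libraries, colour is bases under peaks in bp, white is no peak). The column at 204.4 kb is filled in all 6 KO libraries and in no other, and the column at 240.5 kb is strongest in the 3 WT libraries.

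PDGFB (ENSG00000100311, chromosome 22, 39223359 to 39244982, minus strand), whose product binds both receptors, ran opposite to PDGFRA. WT libraries had 5534, 5088 and 5405 bases, KO1 5002, 4270 and 4497, KO2 4474, 4728 and 5227, Rescue1 5482, 5043 and 5778, and Rescue2 5888, 6358 and 4975. In KO 5 of 6 libraries lay below every WT library, and in rescue 4 of 6 lay above every KO library. Of all genes 11.4% had every rescue library above every KO library, which was not so for any of the 6 loci. Rescue and WT differed by 0.06 ± 0.074 (log2, 95% interval -0.10 to 0.21, limma adjusted p = 0.632).

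The lower PDGFB value in KO was seen with the flanks included. The downstream region at 39214141 to 39215069 covered 733, 541 and 693 bases in WT, 177 to 324 in KO and 443 to 611 in rescue. The upstream region at 39259758 to 39260107 covered 196 to 265 bases in WT, 200 to 310 in rescue and 87 and 125 in the 2 KO libraries that had a peak there. Both were low in KO and higher again in rescue. Over the gene body alone KO was 189.7 bases above WT, against a difference of -643 with the flanks. Inside the gene, regions in intron 1 (39243298 to 39243648) and intron 5 (39226465 to 39226778) had no peak in WT, 5 KO libraries with one each, and 4 and 6 rescue libraries. The downstream region at 39212245 to 39212475 had a peak in the 3 Rescue2 libraries and in no other.

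PDGFA (ENSG00000197461, chromosome 7, 497258 to 520296, minus strand), the main ligand of PDGFRA, had no separation of groups over its window. WT libraries had 4952, 4253 and 4050 bases, KO 3632 to 4140 with a median of 3965, and rescue 3468 to 4770 with a median of 4184.5, all overlapping. Its regions moved in both directions. Regions in the upstream flank (525701 to 526105) and in intron 2 (513504 to 513755) had a peak in every KO and rescue library and in no WT library. The peaks of the upstream region covered 107 to 194 bases in KO and 160 to 404 in rescue. The downstream region at 477693 to 478309 shrank from 457 to 564 bases in WT to 102 to 382 in the 5 KO libraries that had a peak. An upstream region at 536846 to 537118 had a peak in the 3 Rescue2 libraries alone, and an intron 2 region at 513032 to 513361 in 3 Rescue1 libraries and 1 Rescue2 library. Rescue and WT differed by -0.08 ± 0.078 (log2, 95% interval -0.24 to 0.08, limma adjusted p = 0.477). The difference was -0.23 with bases scaled to the library total (limma adjusted p = 0.000343).

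PDGFC (ENSG00000145431, chromosome 4, 156760454 to 156971799, minus strand), a latent ligand of PDGFRA, held the most peak sequence of the 6 loci, and its groups overlapped. WT libraries had 9540, 8026 and 8110 bases, KO 8406 to 9206 with a median of 8667, and rescue 7695 to 9453 with a median of 8951.5. Rescue and WT differed by 0.04 ± 0.072 (log2, 95% interval -0.11 to 0.19, limma adjusted p = 0.728), and by -0.12 with bases scaled to the library total (limma adjusted p = 0.00613). Per kb of window PDGFC had 34.1 bases under peaks in WT, against 86.7 for PDGFB, 70.1 for PDGFA, 42.0 for PDGFRB, 28.6 for PDGFRA and 8.65 for PDGFD.

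Of 62 regions in the PDGFC window 21 had a peak in all 15 libraries. Regions in intron 1 (156898841 to 156898978) and intron 3 (156805882 to 156805999) had a peak in all 3 WT libraries and in none of the other 12, covering 77 to 96 and 78 to 103 bases. In intron 3 the region at 156799115 to 156799577 covered 441, 398 and 280 bases in WT and 118 to 301 in KO, and had a peak in 1 of 6 rescue libraries. An intron 2 region at 156830346 to 156830692 ran the other way, with 88 and 121 bases in 2 WT libraries, 125 to 155 in KO1, 248 to 311 in KO2 and 250 to 304 in rescue. There the KO1 values sat between WT and the other clones.

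Across the 6 loci, 58 of 183 regions had a peak in all 15 libraries, 28 in 1 library and 97 in 2 to 14. The constant regions had a median width of 491 bp, against 162 bp for the rest. A merged region spans the peaks of all its libraries, so its width partly follows from their number. A peak in every KO and no WT library was found at 5 of the 183 regions, against 3.84% of regions genome-wide, with 1 at PDGFRA and 2 each at PDGFA and PDGFD. Of these 5, 4 were intronic, as were 103 of all 183. The reverse, a peak in every WT and no KO library, was found at 3, against 1.99% genome-wide, with 1 at PDGFRB and 2 at PDGFC. Without KO1 replicate 2 the first count was 9 and without WT replicate 3 it was 8, while without WT replicate 3 the second was 5. At each of the 6 genes a merged region with a peak in all 15 libraries reached within 1 kb of the start. At PDGFRA only the edge of that region did so.

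The clones of each genotype were compared at all 6 loci, a contrast that did not enter the choice. No locus differed between KO1 and KO2 (limma adjusted p from 0.809 to 0.994) or between Rescue1 and Rescue2 (limma adjusted p from 0.356 to 0.986). Unadjusted limma p-values were all above 0.05, the lowest being 0.0756 for PDGFD between the rescue clones. Across all genes 2.72% differed between KO1 and KO2 and 4.11% between Rescue1 and Rescue2. The widest difference was at PDGFD, where Rescue1 was lower than Rescue2 by -0.17 ± 0.091 (log2, 95% interval -0.35 to 0.02), with all 3 Rescue1 libraries below all 3 Rescue2 libraries. For PDGFRA the interval of KO1 against KO2 was -0.08 to 0.25. With 3 libraries against 3 the exact permutation test cannot go below 0.1.

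PDGFRA lies in a cluster of receptor tyrosine kinase genes, followed by KIT, the stem cell factor receptor, 428 kb from the PDGFRA start and KDR, a VEGF receptor, at 849 kb. Both neighbours rose in KO. KIT had 890, 878 and 892 bases under peaks in WT, 2572 to 3344 in KO and 1854 to 3306 in rescue (KO minus WT log2 1.27 ± 0.086, limma adjusted p = 5.72e-13). KDR had 363, 191 and 213 bases in WT, 2215 to 2868 in KO and 1301 to 2182 in rescue (log2 1.99 ± 0.1, limma adjusted p = 4.81e-16). In both genes every KO and every rescue library lay above every WT library. Of all genes, 12.8% had every KO library above every WT library. The share with every rescue library above WT was not counted, and limma called 24.3% of genes higher in rescue than in WT. All rescue libraries were below KO for KDR, and 4 of 6 were for KIT. From KO to rescue KDR fell by 0.37 (limma adjusted p = 0.000595) and KIT fell by 0.21 (limma adjusted p = 0.0209). Both calls were lost over the gene body alone (KDR limma adjusted p = 0.141, KIT 0.263). Of the 10 other settings, the gene body among them, KDR kept its call in 9 and KIT in 8. KIT also lost its call in 4 of the 12 settings with 1 library left out. In unscaled bases the KO gain that was absent in rescue was 62.2% at PDGFRA, 29.95% at KDR and 21.1% at KIT, a difference that was not tested. PDGFRA was chosen on these same contrasts and KDR and KIT were not, so nothing is read from its larger share. At PDGFRA the share was larger with bases scaled to the library total, and the scaled shares of KDR and KIT were not computed.

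The stretch around PDGFRA was also counted in bins of 25 kb. In the 1 Mb after its start, every KO library was above every WT library in 18 of 40 bins and below in 0, and genome-wide this held for 17.9% of bins with a peak. Over that stretch the libraries had 9527 to 11245 bases under peaks in WT, 19173 to 23423 in KO and 17141 to 22834 in rescue. In the 500 kb before the start it held for 6 of 20 bins, with means of 10649 bases in WT, 13645 in KO and 12892 in rescue. The higher KO values were thus spread over the receptor genes and the space between them.

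**Figure D4:**
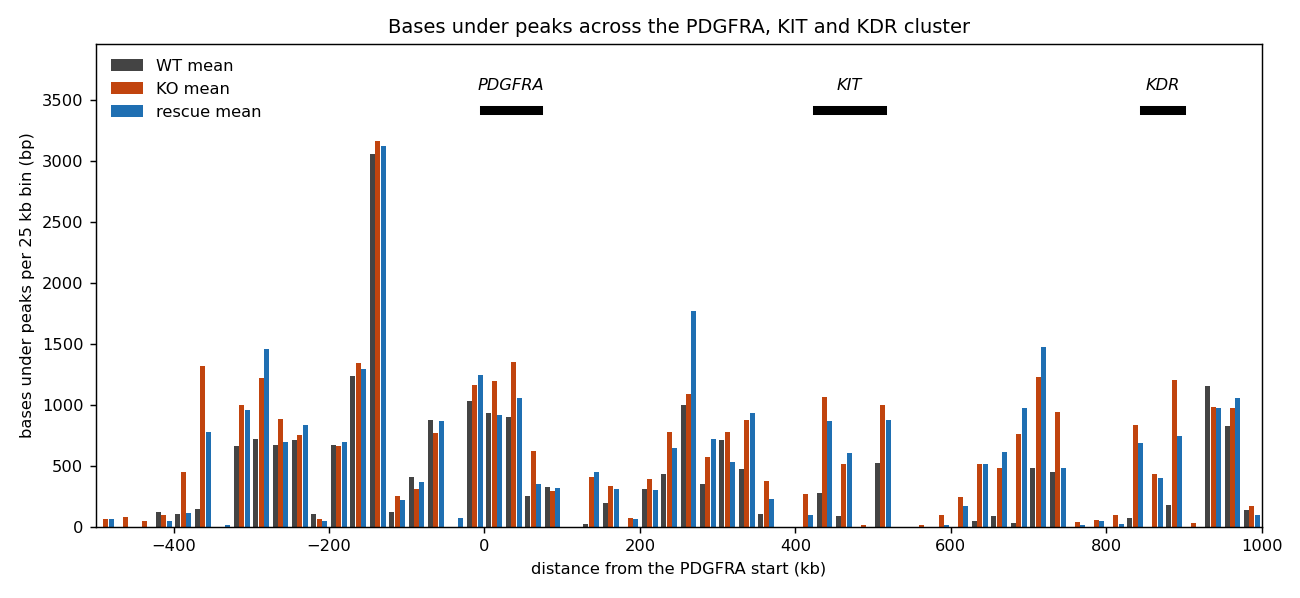
Mean bases under peaks per 25 kb bin (bp, y axis) against distance from the PDGFRA start (kb, x axis) in WT (3 libraries), KO (6) and rescue (6), with the genes PDGFRA, KIT and KDR as black bars. KO means exceed WT means in every bin over KIT and KDR.

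The wider pathway was described by 5 lists of 55 genes, which were drawn up with earlier results of these data known. From WT to KO 10 genes rose, 7 fell and 38 did not pass the test (limma, adjusted p under 0.05 over all genes). Among all genes 15.2% were higher and 13.7% lower, or 52.5% of the calls higher, a share that became 23.6% with bases scaled to the library total. The median difference of the 55 genes was 0.02 against -0.01 for all genes. From KO to rescue 16 rose, 3 fell and 36 did not pass, where 31.5% of all genes were higher and 6.18% lower, with 83.6% of the calls higher (69.6% when scaled), and medians of 0.07 against 0.09. Both contrasts share the KO libraries. Without WT replicate 3, 6 rather than 10 genes rose in KO.

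Of 6 receptor relatives 3 rose and 1 fell in KO, against 15.2% and 13.7% of all genes. Beside KIT and KDR, FLT1, another VEGF receptor, rose by 0.92 ± 0.12 (log2, limma adjusted p = 3.23e-07) and was lower in rescue than in KO by -0.32 ± 0.096 (limma adjusted p = 0.0107), a call lost over the gene body alone (limma adjusted p = 0.0518) and with KO1 alone as KO (limma adjusted p = 0.0807). FLT4, the lymphatic VEGF receptor, had 917, 1129 and 964 bases in WT, 391, 95 and 370 in KO1 but 1160, 1004 and 1014 in KO2, and 1385 to 1871 in rescue. Its fall in KO (log2 -0.45 ± 0.11, limma adjusted p = 0.00145) thus came from KO1, and with KO2 alone the difference was 0.05 (limma adjusted p = 0.811). FLT4 rose from KO to rescue by 0.95 (limma adjusted p = 4.22e-10), and by 0.44 with KO2 alone as KO (limma adjusted p = 0.00255). CSF1R, whose window overlaps that of PDGFRB, rose from KO to rescue by 0.27 ± 0.056 (limma adjusted p = 0.000382). FLT3 did not pass in either contrast.

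Of 8 ligand relatives none passed in KO against WT, VEGFA being nearest at -0.18 ± 0.07 (log2, limma adjusted p = 0.0528). PGF, placental growth factor, rose by 0.33 ± 0.066 in rescue (limma adjusted p = 0.000247), but by 0.08 over the gene body alone (limma adjusted p = 0.485). Of 9 co-receptors and processing enzymes 2 rose and 3 fell in KO, against 15.2% and 13.7% of all genes. The fall was deepest at PCSK5, a proprotein convertase, with 11680 to 13121 bases in WT, 6838 to 9179 in KO and 7775 to 10212 in rescue (log2 -0.59 ± 0.077, limma adjusted p = 4.83e-07). ST14, the matriptase that can cleave latent PDGF, fell by 0.31 in KO (limma adjusted p = 0.00259) and rose by 0.33 in rescue (limma adjusted p = 0.000132). PLAU, the urokinase that activates the D chain, fell by 0.27 in KO (limma adjusted p = 0.0116), a difference of 0.10 in the other direction over the gene body alone. NRP1, a co-receptor, rose by 0.27 (limma adjusted p = 0.00761) and PCSK6 by 0.20 (limma adjusted p = 0.0347). FURIN, which cleaves the A and B chain precursors, rose in rescue by 0.34 (limma adjusted p = 1.24e-05), as did PCSK5 by 0.26 (limma adjusted p = 0.00142), or 0.15 with KO2 alone as KO (limma adjusted p = 0.155). The NRP1 difference was 0.10 with the 150000 strongest peaks per library (limma adjusted p = 0.328).

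Of 24 adaptors and enzymes that bind activated receptors 3 rose and 1 fell in KO, and 7 rose and none fell in rescue. Of all genes 15.2% were higher and 13.7% lower in KO than in WT. From KO to rescue 31.5% of all genes were higher and 6.18% lower. FYN, a kinase of the SRC family, had 4694 to 5401 bases in WT, 7090 to 9057 in KO and 8333 to 9829 in rescue (KO minus WT log2 0.63 ± 0.073, limma adjusted p = 4.84e-08). All rescue libraries of FYN lay above all WT libraries, where limma called 24.3% of all genes higher in rescue than in WT. NCK2 rose by 0.42 (limma adjusted p = 0.000179), SRC by 0.29 (limma adjusted p = 0.00096), and PIK3R1 fell by 0.17 (limma adjusted p = 0.0475). In rescue the largest rises were at GRB2 (0.37, limma adjusted p = 1.69e-05), STAT5B (0.28, limma adjusted p = 0.00154) and PTPN11 (0.25, limma adjusted p = 0.00648). The PTPN11 call was lost in 4 of 10 other settings, with 0.06 for the 150000 strongest peaks per library (limma adjusted p = 0.487). Of 8 kinases further down 2 rose and 2 fell in KO, and those that fell were AKT2 (-0.31, limma adjusted p = 0.00145) and MAP2K1 (-0.27, limma adjusted p = 0.00327). In rescue 3 rose, among them MAP2K1 by 0.37 (limma adjusted p = 4.33e-06) and MAP2K2 by 0.29 (limma adjusted p = 0.000452). The MAP2K2 call was lost in 3 of 10 other settings, with 0.09 for the 150000 strongest peaks (limma adjusted p = 0.27), and the KO call at AKT2 in 2, with KO2 alone (limma adjusted p = 0.06) and with 50 kb flanks (limma adjusted p = 0.0587). With 1 library left out, the KO calls at PCSK6 and PIK3R1 were lost in 6 and 8 of 9 settings, among them the one without WT replicate 3 for both, and those at NRP1 and PLAU in 1 each (without WT replicate 3 and without WT replicate 1).

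**Figure D5:**
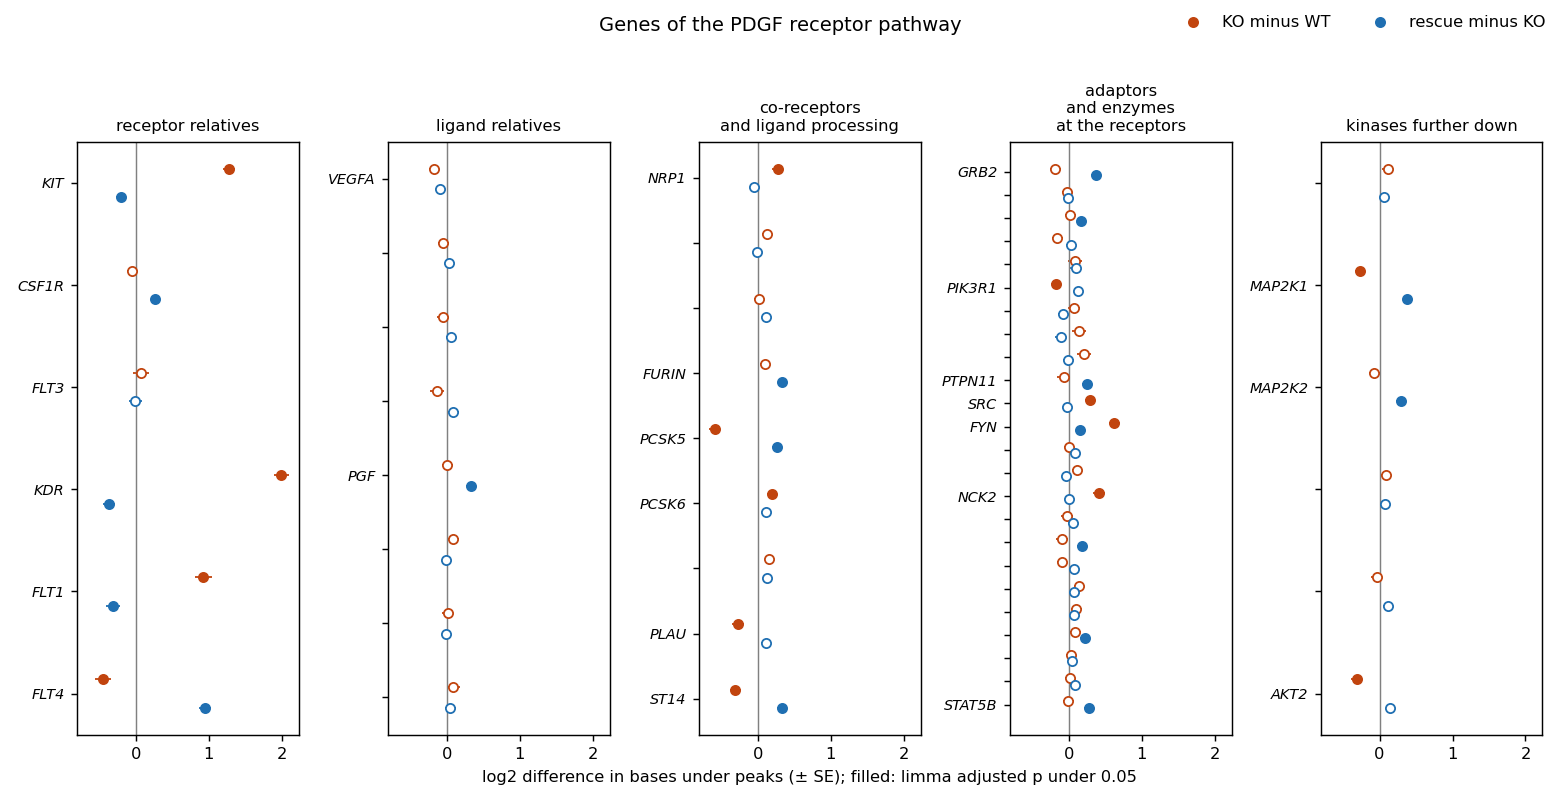
Log2 difference in bases under peaks (x axis, ± SE from limma) for genes of the 5 pathway lists (y axis), for KO minus WT and rescue minus KO. Genes named in the text are labelled, and 2 genes are not drawn. Filled points have a limma adjusted p under 0.05, and KDR and KIT lie farthest to the right at 1.99 and 1.27.

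The genes whose bases under peaks over the 15 libraries were most like those of PDGFRA lay on other chromosomes. Leaving out genes within 1 Mb, the highest Pearson r among 18268 genes was 0.963 for ENSG00000288591 on chromosome 12, followed by GPBAR1, a bile acid receptor gene (0.960), TNNI3K, a cardiac kinase gene (0.958), FPGT-TNNI3K, which overlaps it (0.955), and RORA, an orphan nuclear receptor gene (0.949). TNNI3K had a mean of 413 bases in WT, 3230.3 in KO and 1491.5 in rescue, and RORA 6646, 16549 and 11660.5. Within the PDGF system r with PDGFRA was 0.66 for PDGFD, 0.40 for PDGFC, 0.03 for PDGFRB, -0.16 for PDGFA and -0.41 for PDGFB. These are descriptions over 15 libraries of 5 lines, which share their groups and their peak totals.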

How the data were processed

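ATAC-seq libraries of RPTEC cells were sequenced and aligned to hg38 with BWA by the authors, who called peaks with MACS2 2.2.7.1 in each library separately. The submitters' processing notes name BWA 0.7.17 and DiffBind 2.14.0. Duplicate removal, a shift of the Tn5 insertion site, control tracks and excluded regions are not given in the sources used here. For every peak the authors deposited its interval, a score (the −log10 q scaled to a whole number), a fold enrichment, which is a ratio of the summit to local background, −log10 p and −log10 q values, and where the summit lies. The authors' fold, score and −log10 values compare a peak with its own library, so they served here only to rank and filter peaks within a list. All comparisons rest on the intervals. A peak that is not called leaves no trace in the list, and peak totals grow with read depth, which the lists do not give.

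Peaks outside chromosomes 1 to 22, X and Y were left out. Bases under peaks were summed per gene over the GENCODE v44 gene plus 20 kb on each side, as whole bases per library. Peaks of the 15 libraries sharing at least 1 bp were merged into regions, and a library occupied a region with at least 1 bp under a peak. Exons and introns are numbered by the MANE Select transcript, promoter means within 1 kb of its start, and coordinates count from 1. limma 3.58.1 in R 4.3.3 was run with an intensity trend on log2(bases + 500) for genes with a mean of at least 500 bases, in 1 model of 5 groups and 15 libraries. Fold differences are on that scale, which understates the change of genes with few bases. The fit was tested on simulated data. A contrast of 3 libraries against 6 cannot give an exact permutation p under 0.0238, and tests are two-sided. Intervals are 95% and come from limma's standard errors.

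The members, lists, motifs and tests were chosen with earlier results of these data known. Genes named were the 6 loci, per pathway list at most 3 genes in each direction with an adjusted p under 0.05 and the largest differences, list genes whose window overlaps a member's, the 5 genes most correlated with PDGFRA, and SETD2. Cell type markers came from fixed lists. VEGFA, FLT3 and ENSG00000282278 were named beyond this after their values were seen. Some genes of the lists are not reported here by name. Replicate numbers did not pair libraries across groups.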

Additional observations from a re-analysis of the deposited data

Results flagged for a closer look

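In each of the 12 sets of 6 libraries (KO and rescue at 6 loci) the highest and the lowest library were set against the others by Dixon's test for an outlying value, which flags about 1 in 20 such sets by chance. At PDGFRA, KO1 replicate 3 was the highest KO library with 4895 bases under peaks, apart from the other 5, which had 4073 to 4325. At PDGFRB, KO2 replicate 3 was the highest KO library with 4360 bases, while the other 5 had 3214 to 3629. KO2 replicate 3 also had the most peak sequence of the KO libraries, 61.5 Mb. Without KO1 replicate 3 the PDGFRA difference between KO and WT was 1098 bases, against 1210.5 with it.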

How the results depend on the processing

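PDGFRA stayed higher in KO than in WT and lower in rescue than in KO under every alternative run. The KO difference of 1210.5 bases was 909 with the 150000 strongest peaks per library and 963 with bases scaled to the library total, and 1098 to 1307 with 1 library left out. The rescue difference was -902 to -604 under other settings and -807 to -640 with 1 library left out. With KO1 or KO2 alone as KO, when fewer libraries have to hold a peak, the PDGFRA regions in every KO and no WT library numbered 2 and 3, and with 1 library left out 1 to 2. Regions in every KO and no rescue library numbered 1 with KO1 alone, 1 when at least 50% of a region had to be under peaks, and 0 to 1 with 1 library left out. Of the 5 other loci, 2 differed between rescue and WT, 0 with peaks of −log10 q at or above 5, 1 with the 150000 strongest peaks, 4 with scaled bases and 0 to 2 with 1 library left out. Scaling also gave 1 locus different between Rescue1 and Rescue2. PDGFA and PDGFB turned to 64.8 and 189.7 bases higher in KO over the gene body alone, PDGFC to -0.12 for rescue against WT when scaled, FLT4 to 0.054 with KO2 alone and PLAU to 0.10 over the gene body.

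Of the pathway genes, those higher in KO numbered 6 with KO1 alone and 6 to 11 with 1 library left out, and those lower in KO 21 when scaled, 3 with KO2 alone and 5 to 8 with 1 left out. Those higher in rescue numbered 9 over the gene body, 10 with KO2 alone and 13 to 23 with 1 left out, and those lower in rescue 7 when scaled, 1 with KO1 alone and 2 to 3 with 1 left out. Among all genes, scaling raised those lower in KO from 2502 to 8258, those lower in rescue than KO from 1130 to 2535 and those lower in rescue than WT from 691 to 5576. The cause of these changes was not tested.

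The replicate block left the tested counts at 2, 0 and 0 loci, and at 9, 6, 15 and 3 pathway genes, with the KO calls at PCSK6 (limma adjusted p = 0.0508) and PIK3R1 (limma adjusted p = 0.0736) lost. Deviations of same-numbered libraries correlated between -0.17 and 0.05 in 30 pairs, with 0 over 0.1, and 7 of 15 libraries correlated best with their own number, so the numbers are not a pairing.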
